A study of Mus musculus with 4 samples.

Results

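Open chromatin in gene deserts that holds no AP-1 site is described here, in keratinocytes of the inflamed mouse epidermis. Peaks of 4 ATAC-seq libraries were merged into 82641 regions. A region was kept when its strongest summit lay on chromosomes 1 to 19, more than 100 kb from every transcription start site (TSS) of a coding gene, more than 2 kb from any TSS, and had no AP-1 site (TGAGTCA or TGACTCA) within 150 bp. This left 9211 regions, 11.1% of all. No measure of genotype enters this rule, although the class was chosen with earlier results of these data known. They were set beside 4136 gene-desert regions that do hold an AP-1 site and beside 32273 regions without a site that lie between 2 and 100 kb from genes. All coordinates are on mm10, and genes are those of the GENCODE basic annotation.

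Gene deserts are long stretches of the genome with no coding gene. Open chromatin inside them often marks enhancers, elements that act on a promoter from a distance, or binding sites of CTCF, the zinc finger protein that anchors chromatin loops. Many enhancers of keratinocytes carry an AP-1 site, which is bound by dimers of JUN and FOS proteins, and the kinase JNK1 phosphorylates JUN.

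ATAC-seq cuts open DNA with the transposase Tn5 and sequences the fragments. It was performed on keratinocytes, the cells that build the epidermis, from mice 8 to 12 weeks old whose skin had received a cream with 5% imiquimod (Aldara) for 8 days. The 2 WT samples were compared with 2 Mapk8-KO samples, in which Mapk8, the gene of JNK1, had been deleted by a Cre recombinase under the keratin 14 promoter, per the study's methods. That promoter is active in basal epidermal cells, so cells of other lineages in these mice keep the gene. Cells had been sorted as EpCam+ and CD49f high before the assay, whereas the source label reads whole skin. Whether the WT mice carried floxed alleles was not stated in the sources used here. The comparison asks where chromatin accessibility differs when epidermal cells lack JNK1.

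The libraries differed in depth. Depth, estimated from the summit pileups and set to 1 for WT 1, came to 0.691 for WT 2, 1.12 for Mapk8-KO 1, and 0.644 for Mapk8-KO 2, so that replicate 2 was the shallower of both genotypes. Promoter regions of between 8 and 10 of 10 keratinocyte marker genes were called in each library. Between 0 and 1 of 8 leukocyte, between 2 and 3 of 5 endothelial, 2 of 6 fibroblast and 4 of 6 melanocyte promoters were called in each library. Their part in the results was not tested. The Mapk8 promoter was open in every library, with 96 and 73 fragments at its summit in WT and 109 and 90 in Mapk8-KO, which does not check the deletion. Replicates are independent samples per the study, and a share of regions is given with its Wilson 95% interval, which covers counting error only and not the spread between mice.

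Gene deserts so defined made up 40.4% of the sequenced autosomes (967 Mb of 2396 Mb) and held 16.6% of the autosomal regions, with or without an AP-1 site. The regions without a site occurred at 9.52 per Mb of gene desert. Their median distance to a coding TSS was 189 kb, their quartiles 134 and 309 kb, and the farthest lay 2317 kb away. Introns of coding genes held 2747 of them (29.8%), as in long genes whose start is far away. A further 134 (1.45%) overlapped an exon, 952 (10.3%) lay inside a noncoding gene and 5378 (58.4%) outside every annotated gene. They were more isolated than other open regions: 13.9% (13.2 to 14.6) had no neighbouring region within 50 kb, against 8.99% (8.16 to 9.90) of gene-desert regions with an AP-1 site and 2.21% (2.05 to 2.38) of the near-gene regions without a site. By the rule no coding TSS lies within 50 kb of a gene-desert region, so part of the contrast with near-gene regions follows from the choice.

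Sequences are shown first, because the absence of AP-1 raises the question of what these regions hold. For each motif, the gene-desert region with the highest pileup among those that contain it and were called in all 4 libraries was taken. The stretches run 5′ to 3′ on the plus strand of GRCm38.p6 (RefSeq), the assembly that mm10 denotes, and capitals mark the motif of CTCF, of the epidermal master regulator p63 and of TEAD, the DNA-binding partner of YAP. The regions are chr9:30137430-30138288, 175 kb from Ntm, chr3:38616717-38617702, 133 kb from Ankrd50, and chr2:50687129-50688139, 391 kb from Mmadhc.

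CTCF: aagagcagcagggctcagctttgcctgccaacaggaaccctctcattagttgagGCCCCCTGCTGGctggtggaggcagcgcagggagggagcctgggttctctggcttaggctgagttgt
p63: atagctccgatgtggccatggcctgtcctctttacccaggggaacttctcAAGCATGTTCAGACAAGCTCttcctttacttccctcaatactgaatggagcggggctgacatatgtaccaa
TEAD: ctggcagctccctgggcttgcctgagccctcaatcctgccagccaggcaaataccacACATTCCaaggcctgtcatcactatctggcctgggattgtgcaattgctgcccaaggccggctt

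The CTCF region had 74 and 58 fragments at its summit in WT and 99 and 61 in Mapk8-KO. The p63 region had 86 and 63 fragments in WT and 106 and 51 in Mapk8-KO. The TEAD region had 145 and 98 fragments in WT and 168 and 105 in Mapk8-KO. In all of them the deeper library of each genotype held the higher count, and the limma test described below, with Benjamini-Hochberg adjustment, gave adjusted p values of 0.633, 0.986 and 0.745 in the same order.

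Each motif was looked for on either strand, up to 150 bp from the summit. The CTCF core motif was present in 298 gene-desert regions without an AP-1 site, or 3.24% (2.89 to 3.62), against 2.52% of all other regions. Gene-desert regions with an AP-1 site held it in 0.363% (0.220 to 0.598), and near-gene regions without a site in 4.17% (3.95 to 4.39). The site of GRHL factors, which control epidermal barrier genes, spelled AACCNGTT, was found in 4.98% (4.56 to 5.45) of the gene-desert regions without an AP-1 site, in 3.48% (2.96 to 4.08) of those with a site and in 4.06% of all regions. The C/EBP motif TTGCNNAA, bound by factors of keratinocyte differentiation, was in 21.01% (20.2 to 21.9) of them, 18.3% (17.2 to 19.5) of gene-desert regions with an AP-1 site and 15.6% of all regions. The homeobox core TAATTA was in 9.35%, 9.14% and 6.66% of the same sets.

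The KLF motif GGGNGTGG and the AP-2 motif GCCNNNGGC, both rich in G and C, went the other way. KLF was in 13.0% of these regions and 16.9% of all regions, and AP-2 in 9.20% and 13.6%. The median GC content was 46.2% in gene-desert regions without an AP-1 site and 49.2% in all regions, and the part of base composition in these shares was not tested. The TEAD motif ACATTCC was in 6.67% of the gene-desert regions without an AP-1 site and 5.43% of all regions. RUNX factors regulate hair follicle stem cells, and their motif TGTGGTT was in 6.63% and 5.87%. The motif AGGAAGT of ETS factors was in 8.03% and 8.44%, and AGATAAG, bound by GATA factors, in 5.70% and 4.81%. For SOX factors CCATTGT was found in 4.71% and 3.73%, and for FOX factors TGTTTAC in 5.24% and 4.36%. The STAT motif TTCNNNGAA was in 10.1% and 8.79%, and the E-box CAGCTG in 16.5% and 18.7%. The NFI pair of half-sites was in 1.51% and the IRF repeat in 3.25%, against 1.37% and 2.89% of all regions. The CRE palindrome TGACGTCA, the site of CREB and ATF factors, was in 0.423% against 0.927%. The strict p63 motif was in only 7 of the 9211 regions and in 41 of all regions.

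Regions with different motifs were called with different constancy. Those with a GRHL motif were called in all 4 libraries in 47.3% (42.8 to 51.8) of cases, and those with a CTCF motif in 24.2% (19.6 to 29.3). Among regions called in all 4 libraries, the median log2 pileup relative to each library's median was −0.66 and −0.77 in WT and −0.63 and −0.38 in Mapk8-KO for the 72 with a CTCF motif. It was −0.22, −0.23, −0.23 and −0.05 for the 217 with a GRHL motif. Gene-desert CTCF regions were thus lower in pileup than gene-desert GRHL regions in each of the 4 libraries.

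Gene-desert regions without an AP-1 site were called less constantly than other regions. They were called in all 4 libraries in 35.0% (34.0 to 36.0) of cases, against 47.8% (46.3 to 49.3) for gene-desert regions with an AP-1 site, 40.9% (40.4 to 41.5) for near-gene regions without a site and 48.6% (48.3 to 48.9) for all regions. A single library called 3050 of them (33.1%), compared with 21.7% of all regions. These single calls came from the deep libraries, 1002 from WT 1 and 1350 from Mapk8-KO 1, more often than from the shallow ones, 324 from WT 2 and 374 from Mapk8-KO 2. By library, WT 1 called 71.6% of the gene-desert regions without an AP-1 site, WT 2 called 52.4%, Mapk8-KO 1 called 77.8% and Mapk8-KO 2 called 51.1%. Their counterparts with an AP-1 site were called in 85.7%, 73.5%, 83.1% and 52.9% of cases, so the classes lay far apart in WT 2 and close together in Mapk8-KO 2.

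**Figure D1:**
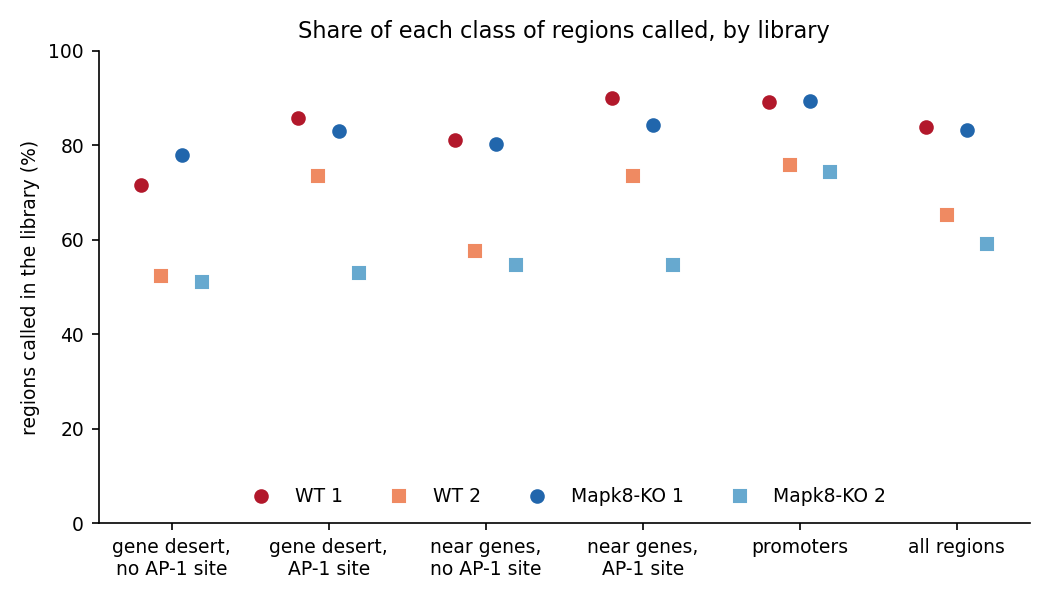
Percentage of the regions of each class (x axis) that were called in each library (y axis), 1 point per library. Of gene-desert regions without an AP-1 site, 77.8% were called in Mapk8-KO 1 and 51.1% in Mapk8-KO 2, and the replicate 2 libraries lie below the replicate 1 libraries in every class.

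As a share of each library's own called regions, gene-desert regions without an AP-1 site made up 9.52% (WT 1), 8.96% (WT 2), 10.4% (Mapk8-KO 1) and 9.64% (Mapk8-KO 2). Both Mapk8-KO libraries were above both WT libraries, with 10.0% ± 0.559 against 9.24% ± 0.395 (SD, n = 2). The two-sided exact permutation test over the 6 assignments of labels gave p = 0.333, the smallest value that 2 libraries against 2 allow, so no comparison of this kind could pass 0.05.

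Where called, these regions were also weaker. At the summit, the median pileup came to 26 and 22 fragments for WT 1 and 2 and to 26 and 21 for Mapk8-KO 1 and 2, against 36, 30, 37 and 25 in gene-desert regions with an AP-1 site and 29, 24, 31 and 23 in near-gene regions without a site. The difference within a library was −8.25 ± 3.10 fragments (SD, n = 4) for the former and −3.00 ± 1.41 for the latter. It had the same sign in 4 of 4 libraries, for which the exact sign-flip test gives its smallest p, 0.125. The local background, the number of fragments MACS2 expected at the summit, had medians of 2.46, 1.92, 2.72 and 1.87 fragments, against 2.98, 2.24, 3.25 and 2.15 in near-gene regions without a site (mean difference −0.409 ± 0.131, exact sign-flip p = 0.125). The fold enrichment over that background, in contrast, had a mean difference of −0.0750 ± 0.142 from the near-gene regions without a site (exact sign-flip p = 0.5), with values on both sides of 0. From gene-desert regions with an AP-1 site it was −1.40 ± 0.137, negative in 4 of 4 libraries (exact sign-flip p = 0.125). The share of called regions whose background was the genome-wide one was 41.6%, 33.8%, 45.0% and 36.3% in the 4 libraries, and 33.2%, 28.2%, 36.4% and 29.4% near genes.

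Within the class the share called differed with distance. Gene-desert regions without an AP-1 site that lay between 100 and 150 kb from a coding TSS (3071 regions) were called in all 4 libraries in 37.9% of cases, those between 150 and 250 kb (2974) in 37.2%, those between 250 and 500 kb (2240) in 31.6% and those beyond 500 kb (926) in 26.7%. In the nearest bin WT 1 called 76.8% and in the farthest 59.1%. For WT 2 these shares were 55.4% and 41.3%, for Mapk8-KO 2 they were 53.3% and 42.1%, and for Mapk8-KO 1 they were 79.3% and 74.2%. Regions called by Mapk8-KO 1 alone were 11.4% of the nearest bin and 24.6% of the farthest, and those called by WT 1 alone 11.01% and 13.3%. Mapk8-KO 1 thus stood apart from the other 3 libraries in the most remote regions, its own genotype partner included.

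**Figure D2:**
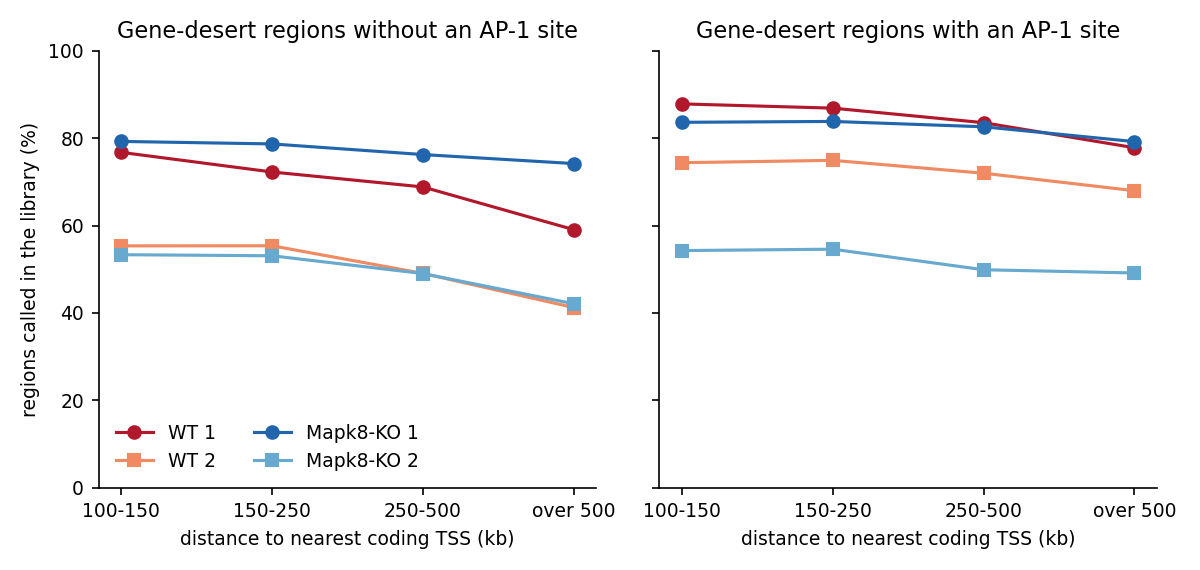
Percentage of gene-desert regions called (y axis) by distance of the summit to the nearest coding TSS in kb (x axis, 4 bins), without an AP-1 site on the left and with a site on the right, 1 line per library. Without a site the share beyond 500 kb is 74.2% in Mapk8-KO 1, against 59.1% in WT 1.

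Around the limits that chose the class, regions without an AP-1 site between 95 and 100 kb from a coding TSS, just outside the class, were called in all 4 libraries in 40.2% of 478 cases, and those up to 5 kb beyond the limit, just inside it, in 35.2% of 398 cases. The same share was 38.0% of 205 regions of the class with an AP-1 site in the 50 bp beyond the 150 bp window, and 43.3% of 344 gene-desert regions whose nearest site lay in the outer 50 bp of that window.

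Regions open in both libraries of 1 genotype and in neither of the other were counted next. Of the 9211 gene-desert regions without an AP-1 site, WT 1 and WT 2 alone called 190 (WT-specific), or 2.06% (1.79 to 2.37), beside 2.17 percent of all regions. The reverse pattern (Mapk8-KO-specific) was seen in 303, or 3.29% (2.94 to 3.67), beside 1.65 percent of all regions. WT-specific regions thus made up 38.5% (34.3 to 42.9) of the 493 genotype-exclusive ones. Among gene-desert regions with an AP-1 site the counts were 147 and 44, a WT-specific share of 77.0% (70.5 to 82.4), and among near-gene regions without a site they were 728 and 704, a share of 50.8% (48.2 to 53.4).

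Other pairs of libraries gave larger and smaller counts. The pair WT 1 and Mapk8-KO 1 alone called 708 of the gene-desert regions without an AP-1 site, and WT 2 and Mapk8-KO 2 alone called 22. WT 1 with Mapk8-KO 2 called 89 and WT 2 with Mapk8-KO 1 called 148. The departure of the WT-specific share from 50% was not larger than under the other divisions of the 4 libraries (exact permutation p = 1). The difference in that share between gene-desert regions without and with an AP-1 site, −38.4 percentage points, was the largest of the 3 divisions (exact permutation p = 0.333, the smallest possible). The difference from the near-gene regions without a site was −12.3 points (exact permutation p = 0.333).

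Leaving out a library moved these counts by up to several fold, but it also changed what was counted. The genotype left with 1 library then needed a call in that library alone, while the other still needed both. The shares that follow are therefore not the same measure as the share from all libraries. The WT-specific share was 37.4% without WT 1, 74.97% without WT 2, 59.0% without Mapk8-KO 1 and 12.3% without Mapk8-KO 2, so its side of 50% turned without WT 2 or Mapk8-KO 1. With lists cut to equal length by p value, 170 WT-specific and 240 Mapk8-KO-specific regions were found.

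**Figure D3:**
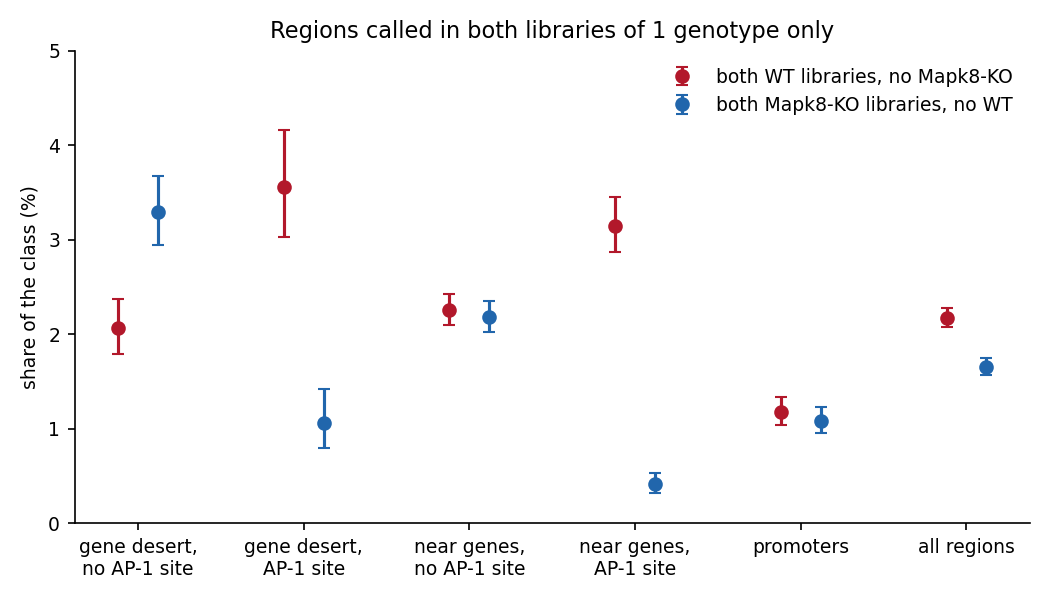
Percentage of each class of regions (y axis) called only in the WT pair or only in the Mapk8-KO pair of libraries, with Wilson 95% intervals as bars (counting error only). In gene-desert regions without an AP-1 site the values are 2.06% and 3.29%, and in those with an AP-1 site 3.55% and 1.06%.

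The 5 WT-specific regions with the highest pileup in the weaker of their libraries are named, after pileups had been scaled so that the regions called in all 4 libraries had the same median in each. A library without a peak gives no pileup, so no value stands against theirs. The first, chr3:81193809-81194075, lies in an intron of Pdgfc, a growth factor of the PDGF family, and had 55 and 43 fragments at its summit in WT. The second, chr13:115811839-115812105, lies 498 kb from Isl1, a LIM homeobox gene, with 42 and 47 fragments, and 72.4% of its window is marked as repeat. The third, chr12:35684574-35684844, lies 150 kb from Ahr, the aryl hydrocarbon receptor gene, inside a noncoding gene, with 39 and 28 fragments. The others were chr6:109153592-109154006, 325 kb from Edem1, with 39 and 27 fragments, and chr1:157230498-157230756 in an intron of Rasal2, with 36 and 25.

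Mapk8-KO-specific regions of the same rank had like heights. The first, chr3:149174688-149174890, lies 184 kb from Adgrl2, which encodes an adhesion receptor of the latrophilin family, with 55 and 36 fragments in Mapk8-KO 1 and 2. The second, chr11:34518529-34518841, lies in an intron of Dock2, a guanine nucleotide exchange factor of leukocytes, with 49 and 36 fragments. The third, chr14:105772559-105772850, lies 124 kb from Spry2, an inhibitor of receptor tyrosine kinase signalling, with 52 and 25 fragments. The others were chr8:116098336-116098530, 391 kb from Maf, with 44 and 30, and chr7:89126453-89126794, 212 kb from Tmem135, with 45 and 24. None of the 10 had a copy of at least 95% identity over 100 bp elsewhere on the chromosomes.

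The summits of the first 3 of each kind are printed because the imperfect AP-1 sites they hold are counted next. Capitals mark every stretch of 7 bases that differs from the AP-1 consensus at a single base. The Dock2 region holds such a stretch only outside the bases shown, within 150 bp of its summit.

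WT-specific, Pdgfc intron: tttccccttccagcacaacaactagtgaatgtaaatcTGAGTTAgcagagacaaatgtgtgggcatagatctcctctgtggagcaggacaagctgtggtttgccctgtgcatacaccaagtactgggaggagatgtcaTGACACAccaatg
WT-specific, Isl1: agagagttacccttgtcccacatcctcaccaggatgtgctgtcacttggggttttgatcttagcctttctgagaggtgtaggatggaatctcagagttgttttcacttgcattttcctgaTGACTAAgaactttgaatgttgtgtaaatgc
WT-specific, Ahr: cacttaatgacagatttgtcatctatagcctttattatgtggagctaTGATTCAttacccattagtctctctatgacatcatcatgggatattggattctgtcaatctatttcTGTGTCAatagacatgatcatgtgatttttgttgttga
Mapk8-KO-specific, Adgrl2: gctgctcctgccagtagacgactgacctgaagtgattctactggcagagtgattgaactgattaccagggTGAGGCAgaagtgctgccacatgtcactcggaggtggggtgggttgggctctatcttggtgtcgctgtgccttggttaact
Mapk8-KO-specific, Dock2 intron: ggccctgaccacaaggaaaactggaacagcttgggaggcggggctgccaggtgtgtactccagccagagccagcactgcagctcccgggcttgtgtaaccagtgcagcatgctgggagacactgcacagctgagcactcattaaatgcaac
Mapk8-KO-specific, Spry2: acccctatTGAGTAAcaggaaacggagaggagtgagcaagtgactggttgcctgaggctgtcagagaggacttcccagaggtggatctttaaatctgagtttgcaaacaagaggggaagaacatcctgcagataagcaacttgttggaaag

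Such imperfect sites were common. At least 1 lay within 150 bp of the summit in 6422 of the 9211 gene-desert regions without an AP-1 site, or 69.7% (68.8 to 70.7), against 64.7% of all regions. They were present in 155 of the 190 WT-specific regions (81.6%, 75.5 to 86.4), in 2348 of the 3224 called in all 4 libraries (72.8%, 71.3 to 74.3) and in 190 of the 303 that were Mapk8-KO-specific (62.7%, 57.1 to 68.0).

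The position of the differing base was then examined, a split chosen after the data had been seen. A site that departed at the second base from either end (such as TGACTAA or TGAGTAA, read on either strand) was held by 88 of 190 WT-specific regions (46.3%, 39.4 to 53.4), and by 56 of the 303 specific to Mapk8-KO (18.5%, 14.5 to 23.2). A site that departed at the centre base was held by 20.5% (15.4 to 26.8) and 8.58% (5.92 to 12.3). Sites that departed at an outer base were held by 28.4% (22.5 to 35.2) and 22.8% (18.4 to 27.8), and those at the third base by 36.3% (29.8 to 43.4) and 32.3% (27.3 to 37.8). The intervals cover counting error over regions and not the spread between libraries, so they do not decide which positions differ by genotype. Regions called in all 4 libraries lay between the genotype-exclusive sets for the second base (35.8%) and the centre (13.9%).

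Single words differed further. TGACTAA, or TTAGTCA on the other strand, was in 34 WT-specific regions (17.9%) and 8 Mapk8-KO-specific regions (2.64%). TGAGTAA was in 26 (13.7%) and 13 (4.29%), TGAATCA in 39 (20.5%) and 26 (8.58%), and TGACACA in 41 (21.6%) and 23 (7.59%). By contrast TGAGCCA was in 13 (6.84%) and 24 (7.92%), TGAGGCA in 11 (5.79%) and 26 (8.58%), and TGACCCA in 3 (1.58%) and 17 (5.61%). The words that differ at 1 base thus did not share 1 direction.

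**Figure D4:**
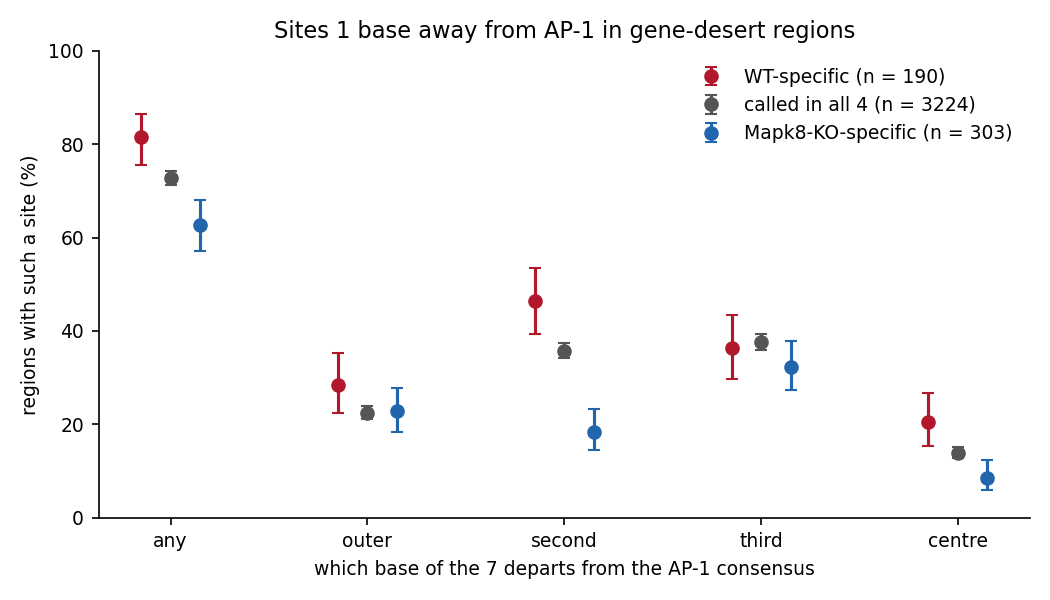
Percentage of gene-desert regions without an AP-1 site (y axis) that hold a site 1 base away from the AP-1 consensus, by which of the 7 bases departs (x axis), with Wilson 95% intervals. At the second base the WT-specific regions are at 46.3%, those called in all 4 libraries at 35.8% and the Mapk8-KO-specific ones at 18.5%.

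Read the other way, the WT-specific share of the genotype-exclusive regions was 61.1% (53.0 to 68.7) where a second-base site was present, 33.3% (27.2 to 40.1) where only other imperfect sites were present and 23.6% (17.5 to 31.1) where there was none. The difference in this share between regions with and without a second-base site was 31.9 percentage points (exact permutation p = 0.333, the smallest possible), and between 10.2 points without Mapk8-KO 2 and 22.6 points without Mapk8-KO 1 when each library was left out. Regions with a second-base site were called in 76.9% and 58.8% of cases in WT, and in 78.7% and 50.3% in Mapk8-KO. Those without any imperfect site were called in 65.4% and 46.2%, and in 76.7% and 51.1%, so the sets were apart in both WT libraries and close in both Mapk8-KO libraries. Among near-gene regions without an AP-1 site, a second-base site was in 38.3% (34.9 to 41.9) of the 728 WT-specific and 21.3% (18.4 to 24.5) of the 704 Mapk8-KO-specific regions.

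Levels were compared in the 3224 gene-desert regions without an AP-1 site that were called in all 4 libraries. Their median log2 summit pileup, relative to the median of all regions called in all 4 libraries, was −0.26 and −0.28 in WT and −0.23 and −0.21 in Mapk8-KO. The difference of WT from Mapk8-KO was −0.05 (exact permutation p = 0.333), and the direction turned under 4 of the other settings tried. Gene-desert regions with an AP-1 site had medians of 0.17 and 0.20 in WT and 0.10 and −0.15 in Mapk8-KO. Inside each library the regions without a site lay below those with a site, by −0.42, −0.48, −0.33 and −0.05 in the same order, which is −0.45 ± 0.04 in WT and −0.19 ± 0.20 in Mapk8-KO (SD, n = 2). The gap was thus wider in both WT libraries, with a difference of −0.26 between the genotypes (exact permutation p = 0.333). Without Mapk8-KO 2 that difference was −0.09.

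A limma fit on the log2 summit pileup of all 40159 regions called in all 4 libraries, with the variance trend on and p values adjusted by Benjamini-Hochberg, was used for single regions. Of the 3224 gene-desert regions without an AP-1 site, 14 were higher in WT at an adjusted p under 0.05 (0.434%), beside 0.498 percent of all regions tested, and 11 were higher in Mapk8-KO (0.341%), beside 0.11 percent. Of the 1978 gene-desert regions with an AP-1 site, 46 were higher in WT (2.33%) and none in Mapk8-KO, where 44 had an unadjusted p under 0.05. The median log2 difference, WT minus Mapk8-KO, was −0.05 in the gene-desert regions without an AP-1 site and −0.05 over all regions tested. These counts depended on how libraries were centred: at the median ratio to each region's mean, a choice made after seeing the data, 11 of the 25 remained, 8 higher in WT and 3 higher in Mapk8-KO, and limma on fold enrichment, without the variance trend, or centred at promoters called none.

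The 5 regions higher in WT with the smallest p came first, and picking them by p from the same counts favours separation of the genotypes. Of the class called in all 4 libraries, 17.6% had both WT libraries above both Mapk8-KO libraries after depth scaling, and 26.0% the reverse. At chr16:72914109-72914796, in an intron of Robo1, which encodes a receptor for SLIT guidance proteins, WT 1 and WT 2 had 206 and 130 fragments and Mapk8-KO 1 and 2 had 145 and 60. Scaled for depth these are 170 and 155 against 109 and 81.1 (log2 difference 0.79 ± 0.17 (SE), limma adjusted p = 0.00489). At chr1:186505982-186506364, 200 kb from Tgfb2, which encodes a TGF-beta ligand, the counts were 74 and 57 against 40 and 24. Scaled for depth they were 61.2 and 68.0 against 30.0 and 32.4 (log2 difference 1.05 ± 0.23 (SE), limma adjusted p = 0.00583). The region chr18:89459073-89459413 in an intron of Dok6, nearest to the TSS of Cd226, had 49 and 43 against 29 and 13 fragments. The region chr8:116201125-116201682, 303 kb from Dynlrb2, had 49 and 45 against 27 and 15, and chr2:161572122-161572525, in an intron of Ptprt with Chd6 as the nearest TSS, had 120 and 86 against 103 and 30. Their log2 differences were 1.22 ± 0.27, 1.20 ± 0.27 and 0.85 ± 0.19 (SE), with limma adjusted p values of 0.00816, 0.00836 and 0.00925. All of these 5 held an imperfect AP-1 site within 150 bp of the summit, as did 72.8% of the class called in all 4 libraries. None of the 5 had a near-identical copy on the chromosomes.

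Regions higher in Mapk8-KO were led by chr3:66650285-66651333, 328 kb from Shox2, a homeobox gene. It had 49 and 35 fragments in WT and 87 and 84 in Mapk8-KO, or 40.5 and 41.7 against 65.3 and 113 when scaled for depth (log2 difference −1.07 ± 0.21 (SE), limma adjusted p = 0.000893). The Mapk8-KO libraries were both higher but far apart. At chr8:15519778-15520119, 462 kb from Myom2, the counts were 127 and 130 against 280 and 188 (log2 difference −0.86 ± 0.17 (SE), limma adjusted p = 0.000966). This sequence has 12 copies of at least 95% identity elsewhere on the chromosomes, so its fragments cannot be tied to the site. The region chr1:67481893-67482422, 359 kb from Cps1, had 22 and 14 against 58 and 30 fragments, chr9:30624479-30625272, 198 kb from Snx19, had 15 and 9 against 34 and 24, and chr14:98654050-98654844, 340 kb from Rpl36a-ps1, had 24 and 17 against 51 and 35. Their log2 differences were −1.27 ± 0.28, −1.32 ± 0.32 and −1.08 ± 0.28 (SE), with limma adjusted p values of 0.0077, 0.0171 and 0.0307. Of these 5, the region near Cps1 alone held an imperfect AP-1 site.

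The summits of the first region higher in WT and of the first higher in Mapk8-KO are shown with imperfect AP-1 sites in capitals. The second line has none.

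Robo1 intron, higher in WT: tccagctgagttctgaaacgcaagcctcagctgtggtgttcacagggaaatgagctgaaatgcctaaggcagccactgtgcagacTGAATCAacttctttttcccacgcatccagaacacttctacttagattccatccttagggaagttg
Shox2, higher in Mapk8-KO: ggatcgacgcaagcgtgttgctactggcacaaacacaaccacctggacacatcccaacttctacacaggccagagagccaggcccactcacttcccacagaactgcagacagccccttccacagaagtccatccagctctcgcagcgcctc

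**Figure D5:**
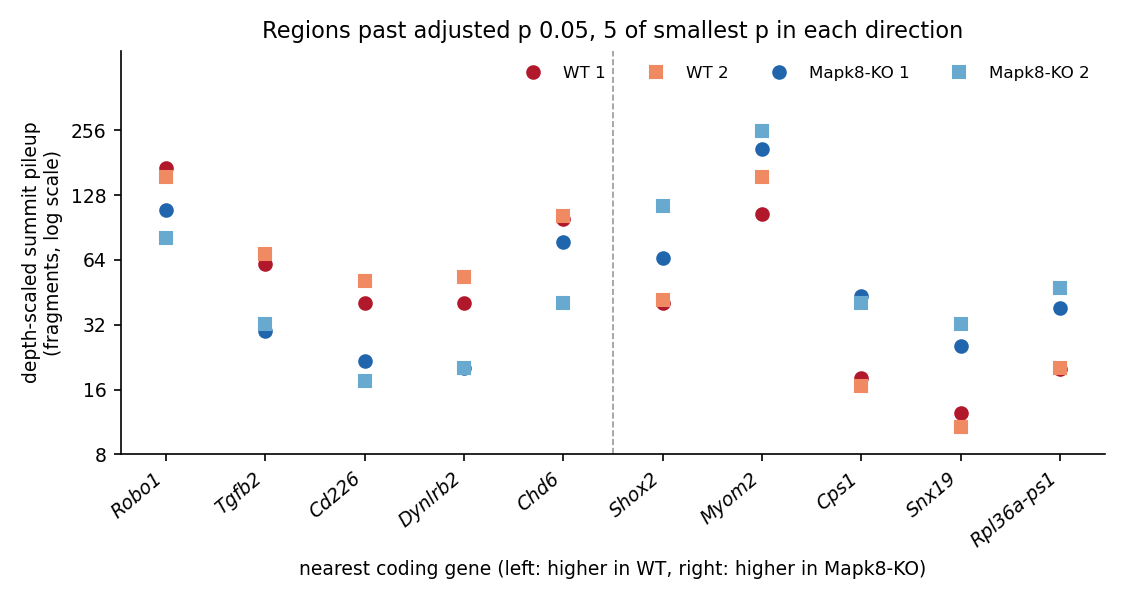
Depth-scaled summit pileup in fragments (y axis, log scale) of the 5 gene-desert regions without an AP-1 site with the smallest p in each direction, by nearest coding gene (x axis), 1 point per library. Left of the dashed line both WT libraries lie above both Mapk8-KO libraries, as at Tgfb2 with 61.2 and 68.0 against 30.0 and 32.4, and right of it they lie below. The regions were picked by p from these same values, which favours this separation.

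Of the 14 regions higher in WT, 10 held a second-base site, 3 another imperfect site and 1 none. Of the 11 on the Mapk8-KO side, 2 held a second-base site, 4 another and 5 none. Among all 3224 regions of the class tested, 1155 held a second-base site (35.8%), 1193 another and 876 none. The split was chosen after the data had been seen. None of the calls remained on fold enrichment, without the variance trend or centred at promoters. The median log2 level of the 1155 regions with a second-base site called in all 4 libraries was −0.12, −0.13, −0.14 and −0.21 in WT 1, WT 2, Mapk8-KO 1 and Mapk8-KO 2. That of the 876 without any imperfect site was −0.44, −0.44, −0.40 and −0.21. The regions with a second-base site were thus higher in 3 libraries and level with the others in Mapk8-KO 2.

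The tallest gene-desert regions without an AP-1 site were of another kind. The highest pileup stood at chr12:97061432-97061795, 1198 kb from Galc, with 6058 and 5385 fragments in WT and 6570 and 5561 in Mapk8-KO, and its window matches mitochondrial DNA with 99.6% identity over 277 bp. Such a match was found in 5 of the 9211 regions. Those at chr5:60042721-60043138 (98.2% identity, 1626, 1346, 1727 and 1398 fragments) and chr6:9889946-9890174 (97.6%, 1294, 1158, 1402 and 1150 fragments) came next. The second tallest of all, chr12:3109872-3110115, is 92.0% repeat and has 90 near-identical copies, and chr14:124801554-124802236, 125 kb from Fgf14, is wholly repeat. The sixth, chr3:5860339-5860889, has 13 copies. Of the 20 tallest, 11 matched mitochondrial DNA or were over 50% repeat. None of the 6 tallest passed the limma test, with adjusted p values between 0.711 and 0.986.

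Over 50% of the window was marked as repeat in 10.1% of the gene-desert regions without an AP-1 site, in 3.92% of those with a site and in 5.88% of all regions. Without repeat-rich or mitochondrial-like windows the counts were 170 WT-specific and 281 Mapk8-KO-specific regions and 24 limma calls. The region with the highest pileup among those with a GRHL motif, chr13:44869572-44870086 in an intron of Jarid2, held a stretch with 6382 near-identical copies and is therefore not shown as sequence.

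The most remote regions called in all 4 libraries, apart from the mitochondrial match on chromosome 5, lay 1745 kb from Tyrp1 (chr4:79088405-79089283), 1728 kb from Sel1l (chr12:93576987-93577222) and 1628 kb from Slc39a10 (chr1:48481528-48482186). The first had 122 and 79 fragments in WT and 144 and 76 in Mapk8-KO and held GRHL and TEAD motifs. The second had 84, 60, 83 and 49 fragments in WT 1, WT 2, Mapk8-KO 1 and Mapk8-KO 2 and is wholly repeat, with 1346 near-identical copies. The third had 23, 12, 31 and 21. No difference between the genotypes passed the limma test at any of them.

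Gene-desert regions without an AP-1 site were nearest to 2215 coding genes. The most were assigned to Gata3, which encodes a GATA factor of epidermis and hair follicle (52 regions), followed by Adgrl2 (47), Robo1 (45), Flrt3 (43), which encodes a transmembrane ligand of latrophilins, and Sox9 (42), a regulator of hair follicle stem cells. The nearest gene need not be the target. The length of gene desert nearest to each was 1.14 Mb at Gata3, 1.99 Mb at Adgrl2, 1.85 Mb at Robo1, 1.05 Mb at Flrt3 and 1.05 Mb at Sox9. Per Mb, Gata3 had 45.6, Flrt3 40.8 and Sox9 40.01 regions, against 24.3 at Robo1 and 23.6 at Adgrl2.

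Of 69 epidermal regulators, ligands and receptors on a list, 39 (56.5%) had such a region nearest to them, beside 10.7% of all 20780 autosomal coding genes. Only genes that border a desert can have any, and of these the shares were 39 of 43 (90.7%) for the list and 59.7% of 3709 for all. The list was chosen with results of these data known, and the shares are descriptive. The 418 regions nearest to list genes came to 31.7 per Mb of desert, and all others to 9.22 per Mb.

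Transcription factors of the epidermis led the list after Gata3 and Sox9. Myc, a driver of growth, had 36 regions, Klf5, of basal keratinocytes, 28, Nfib, of hair follicle stem cells, 26, and Klf4, of the barrier, 21. Jag1, a Notch ligand, had 24. Per Mb of desert the value was 86.1 at Klf5, 51.2 at Nfib, 50.5 at Jag1, 41.7 at Klf4 and 29.0 at Myc. Satb1 had 15 regions, Hes1 14, Nrg1 and Tbx3 12 each, Trp63 11 and Tfap2b 10. Bmp2, Ets1 and Fgfr2 had 9 each, Runx2 had 8, and Bcl11b, Ets2, Fosl2, Runx1 and Tfap2c had 6 each. Foxc1, Foxp1, Irx4 and Jun had 5 each, Gata6 and Msx2 4, Bmp4, Cebpb and Tcf7l2 3, Barx2, Grhl2, Lef1, Lrig1 and Pitx1 2, and Areg, Btc and Tfap2a 1.

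Over the whole class 2.06% of regions were WT-specific and 3.29% Mapk8-KO-specific, beside 2.17% and 1.65% of all regions. Counts at single genes were accordingly small. At Gata3, 22 of 52 were called in all 4 libraries, 1 was WT-specific and none Mapk8-KO-specific. At Myc 19 of 36 were called in all 4, none was WT-specific and 3 were Mapk8-KO-specific, and 27, 22, 35 and 24 were called in WT 1, WT 2, Mapk8-KO 1 and Mapk8-KO 2. At Sox9 15 of 42 were called in all 4, with 1 specific to each genotype. Ets1 had 2 Mapk8-KO-specific regions of 9 and Klf5 1 WT-specific region of 28. These counts are too small to set against the shares over all regions.

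The tallest regions nearest to Gata3, Sox9, Klf5 and Nfib are given as examples of their levels, and no direction over the list is drawn from them. At Gata3 (chr2:8924862-8925397, 954 kb away) there were 114 and 92 fragments in WT and 126 and 70 in Mapk8-KO. Scaled for depth these were 94.3 and 110 against 94.6 and 94.6 (limma adjusted p = 0.875). At Sox9 (chr11:113102861-113103828, 321 kb away, inside a noncoding gene) there were 120 and 117 against 130 and 62, or 99.3 and 139 against 97.6 and 83.8 when scaled for depth (log2 difference 0.38 ± 0.18 (SE), limma adjusted p = 0.385). The difference did not pass the adjusted threshold. At Klf5 (chr14:99578581-99580061) the counts were 99 and 89 against 155 and 72. Scaled for depth they were 81.9 and 106 against 116 and 97.3 (log2 difference −0.19 ± 0.18 (SE), limma adjusted p = 0.734). At Nfib (chr4:82076140-82076534, inside a noncoding gene) they were 82 and 54 against 81 and 44, or 67.8 and 64.4 against 60.8 and 59.4 when scaled for depth (limma adjusted p = 0.85).

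The summit near Sox9 is shown as an example of a remote region at an epidermal regulator, with an imperfect AP-1 site that departs at the centre base in capitals.

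Sox9: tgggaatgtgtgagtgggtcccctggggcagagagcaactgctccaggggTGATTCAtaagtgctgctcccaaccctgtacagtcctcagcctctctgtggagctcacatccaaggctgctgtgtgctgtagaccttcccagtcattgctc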

How the data were processed

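The deposited files are MACS2 peak lists, 1 per library, called by the authors without pooling. Reads were mapped to mm10 with Bowtie2 per the study's methods, whereas the submitters' processing notes name STAR 2.5.3, and a Tn5 shift was not given in the sources used here. Each list holds the authors' fold enrichment ratio at the summit, −log10 p and −log10 q values, and the summit offset. The lists held 69927, 54856, 69583 and 49856 peaks in WT 1, WT 2, Mapk8-KO 1 and Mapk8-KO 2.

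Summit pileup and local background were solved from the deposited fold and −log10 p values, and at least 99.996% of peaks gave a whole number of fragments within 0.05. Peaks were merged at 1 bp overlap. Log2 pileups of regions called in all 4 libraries were centred at each library's median and tested with limma 3.58.1 (R 4.3.3), which was tested on simulated data. Shares and library medians were compared by exact permutation. Repeats are soft-masked bases of GRCm38.p6. Similarity to mitochondrial DNA (at least 80% identity over 100 bp) and near-identical copies (at least 95% over 100 bp) were found with blastn 2.17.0.

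The regions, comparison classes, motifs and gene lists were chosen with earlier results of these data known. Named regions were the 6 tallest, the 4 most remote, the tallest with a CTCF, p63, GRHL or TEAD motif, up to 5 specific to each genotype, up to 5 called by limma in each direction, up to 3 similar to mitochondrial DNA, and the tallest at the 5 list genes with most regions, of which 1 is not reported here.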

Additional observations from a re-analysis of the deposited data

How the results depend on the processing

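Of 133 alternative values, 6 turned direction and 34 moved past the limits set for them. The others could still change in size: the difference in the gap to gene-desert regions with an AP-1 site was −0.327 to −0.0920 when a library was left out, and the median log2 difference was −0.00150 by median of ratios. With regions over 50 kb from a coding TSS, 353 were WT-specific, 468 Mapk8-KO-specific, 44 passed the limma test and 37.3% were called in all 4 libraries. Over 200 kb these values were 81, 156, 13 and 31.7%. The share called in all 4 was 36.4% at q of at most 0.001, 42.9% with lists of equal length, 26.3% when peaks had to cover 50% of a region, and 36.9% without repeat or mitochondrial similarity.

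The 25 limma calls were the value that moved most. They were 16 outside gene bodies, 5 with 50% cover, 14 at a mean pileup of at least 20, 10 by quantile normalization, 11 by median of ratios, and 0 on fold enrichment, centred at promoters or without the variance trend, where 307, 428 and 456 had an unadjusted p under 0.05. Libraries of the same number did not deviate together (Pearson r across regions 0.04), so the numbers were not taken as pairs. With a replicate block there were 43, and the WT-specific share was 46.7%. The median log2 difference and the gap to gene-desert regions with an AP-1 site kept their values. The other results were not run with a block.

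The median log2 difference turned from −0.05 to 0.0167 with lists of equal length, 0.0248 with 50% cover and 0.0872 centred at promoters. Leaving out each library in turn gave 231 to 1192 WT-specific and 398 to 1653 Mapk8-KO-specific regions, a WT-specific share of 12.3% to 74.97% (58.99% without Mapk8-KO 1), 2 to 173 limma calls (173 without Mapk8-KO 1), a median log2 difference of −0.0598 to 0.0125 and a share called in all libraries of 35.4% to 43.5%. The exclusive counts and shares among these are not like for like, as the genotype left with 1 library needed a call in that library alone. The causes were not tested. Settings with median of ratios and without repeats were chosen after seeing the data. Regions of low pileup in WT 2 and Mapk8-KO 2 may be missed, as an uncalled region is not a closed one.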
